A study of Mus musculus with 6 samples.

Results

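RUNX1 chromatin immunoprecipitation sequencing (ChIP-seq) peaks were described at the nuclear genes of oxidative phosphorylation in mouse granulosa cells, the somatic cells that surround the oocyte. The genes were chosen by symbol from the RefSeq annotation of GRCm38. They are the protein-coding nuclear genes whose symbols begin with Nduf, Uqcr, Sdha to Sdhd, Cox4 to Cox8 or Atp5, 100 of 21883 nuclear protein-coding genes. The rule itself uses symbols and no peak values. A gene was counted as having a peak where a summit lay within 1 kb of either end of the annotated gene.

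Per the labels, CBA x C57BL/6 F1 mice 21 days old were primed with 5 IU eCG, a gonadotropin that makes follicles grow, and given 5 IU hCG 46 h afterwards as a substitute for the luteinising hormone surge that starts ovulation. The 6 h group was collected 6 h after hCG and is called peri-ovulatory. The 0 h group is labelled pre-ovulatory, at 0 h of hCG, although the treatment text, the same for all samples, describes only the 6 h collection. Each time point has 2 RUNX1 ChIP libraries and 1 pooled input. The labels do not say whether the replicates came from separate animals, so spreads and p-values cover only these libraries. Peak lists carry no expression, and the identity of the cells was not checked with marker genes.

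Oxidative phosphorylation runs in the inner mitochondrial membrane. Complex I oxidises NADH, complex II oxidises succinate, complex III passes electrons to cytochrome c, complex IV reduces oxygen, and complex V, the ATP synthase, uses the resulting proton gradient. Most of the subunits are coded in the nucleus, and their promoters are known for sites of NRF1, the ETS factor GABPA, YY1 and CREB. In granulosa cells, which become steroid-producing luteal cells after the surge, the mitochondrion also holds the first step of steroid synthesis. RUNX1 binds DNA with its partner CBFB at the words TGTGGT and TGCGGT.

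The stretches upstream of 5 start sites are shown first. They are the genes with the highest 6 h ranks among those named here for a 0 h peak or for a high 6 h rank, with a 6 h summit inside the RefSeq promoter window. Each runs over the 250 bases before the annotated start, 5′ to 3′ on the strand of the gene, from the RefSeq promoter table of GRCm38.p6. Capitals mark the searched words on either strand: RUNX (TGTGGT or TGCGGT), ETS (CCGGAAG), NRF1 (GCATGCGC), YY1 (AAGATGGC), SP (GGGCGG) and CRE (TGACGTCA). A word on the other strand stands as its reverse complement, so that RUNX can read ACCACA.
Ndufs7, chr10:80249199-80249448, plus strand: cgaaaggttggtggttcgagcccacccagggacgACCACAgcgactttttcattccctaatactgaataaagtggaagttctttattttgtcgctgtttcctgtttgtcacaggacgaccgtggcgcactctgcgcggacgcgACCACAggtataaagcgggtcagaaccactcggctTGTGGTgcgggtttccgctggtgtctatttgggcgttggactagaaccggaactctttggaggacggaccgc
Ndufab1, chr7:122101849-122102098, minus strand: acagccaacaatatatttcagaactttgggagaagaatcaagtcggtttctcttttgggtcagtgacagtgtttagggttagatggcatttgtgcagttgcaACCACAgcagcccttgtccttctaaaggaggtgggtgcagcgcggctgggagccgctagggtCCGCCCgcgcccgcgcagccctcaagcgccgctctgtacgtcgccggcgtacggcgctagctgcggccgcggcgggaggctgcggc
Uqcrfs1, chr13:30545317-30545566, minus strand: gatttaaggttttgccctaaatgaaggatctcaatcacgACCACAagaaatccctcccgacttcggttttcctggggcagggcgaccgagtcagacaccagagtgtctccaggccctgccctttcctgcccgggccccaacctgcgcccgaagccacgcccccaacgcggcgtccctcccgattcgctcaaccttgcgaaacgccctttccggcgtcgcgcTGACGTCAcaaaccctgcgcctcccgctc
Ndufs5, chr4:123718187-123718436, minus strand: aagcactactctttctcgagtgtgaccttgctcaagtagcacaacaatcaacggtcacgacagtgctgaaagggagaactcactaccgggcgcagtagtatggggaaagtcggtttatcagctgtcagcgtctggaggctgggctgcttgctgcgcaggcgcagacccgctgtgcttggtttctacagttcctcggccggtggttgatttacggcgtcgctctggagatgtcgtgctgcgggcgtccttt
Sdhaf1, chr7:30322376-30322625, minus strand: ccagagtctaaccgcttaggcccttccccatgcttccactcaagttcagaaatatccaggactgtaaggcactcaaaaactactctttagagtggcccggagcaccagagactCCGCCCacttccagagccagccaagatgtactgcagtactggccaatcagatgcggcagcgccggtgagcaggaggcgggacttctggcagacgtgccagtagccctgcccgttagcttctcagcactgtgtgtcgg

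Ndufs7, Ndufab1 and Uqcrfs1 held 3, 1 and 1 RUNX words in these stretches. Ndufs5 held none of the searched words, and Sdhaf1 held 1 SP word. The Ndufs7 start used by the table lies inside the annotated gene, and both 6 h summits lay in the printed stretch, 49 and 50 bases before that start. The nearest RUNX word there covers bases 72 to 67 before the start. At Ndufab1, Ndufs5 and Sdhaf1 the summits lay just past the printed stretch, 6 to 48 bases downstream of the start. The Uqcrfs1 summits lay 43 bases upstream at 0 h, and 26 bases downstream and 18 bases upstream at 6 h.

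Many more of these genes had a RUNX1 peak at 6 h than at 0 h. At 0 h, 3 of the 100 genes had a peak in replicate 1 and 13 in replicate 2. At 6 h, 62 had one in replicate 1 and 74 in replicate 2, so the libraries of the time points did not overlap. Over all nuclear protein-coding genes the shares were 1.58% and 8.04% before hCG, then 38.1% and 45.4%. The 0 h libraries had a mean of 8% ± 7.07 and the 6 h libraries one of 68.0% ± 8.49 (SD, n = 2 each), a difference of 60.0 percentage points (exact permutation test over libraries, two-sided, p = 0.333, the smallest p that 2 against 2 allows). The direction turned when the lists were made equally long. With the 948 peaks of lowest p in each list, 0 of the 100 genes had a peak in both 6 h lists and the difference was −2.00 points. Only 4 of the 100 genes then had a 0 h peak, so the turn rests on few genes. The 948 peaks are all of 0 h replicate 1 but a small part of the 18761 and 28671 peaks of the 6 h lists.

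The members had a peak more often than other protein-coding genes in 4 of 4 libraries. The excess was 1.43 and 4.98 percentage points in the 0 h lists, then 24.0 and 28.7 points in the 6 h lists, a mean of 3.21 ± 2.51 against 26.4 ± 3.37 (SD, n = 2 each). Its increase of 23.2 points had an exact permutation p of 0.333 (two-sided), again the smallest possible. As a ratio of shares, the members stood at 1.91 and 1.62 times the other genes before hCG and at 1.63 and 1.64 times 6 h after it. The excess was thus larger at 6 h in percentage points and not as a ratio. Genes are not replicates, and the excess within a library was not tested.

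Other housekeeping groups, taken by the start of their symbols, had similar shares. Of the 78 mitochondrial ribosomal protein genes, 69.2% and 82.1% had a peak in the 6 h replicates. The 91 genes with symbols of cytoplasmic ribosomal proteins reached 80.2% and 79.1%, and the 40 with symbols of proteasome subunits 65.0% and 80.0%. These symbols also take in a few genes that are not subunits, such as Rps19bp1 and Psmc3ip. At 0 h these groups lay between 1.10% and 5.00% in replicate 1 and between 14.1% and 15% in replicate 2, beside 3% and 13.0% of the oxidative phosphorylation genes. Nothing particular to oxidative phosphorylation can be read from these shares.

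**Figure D1:**
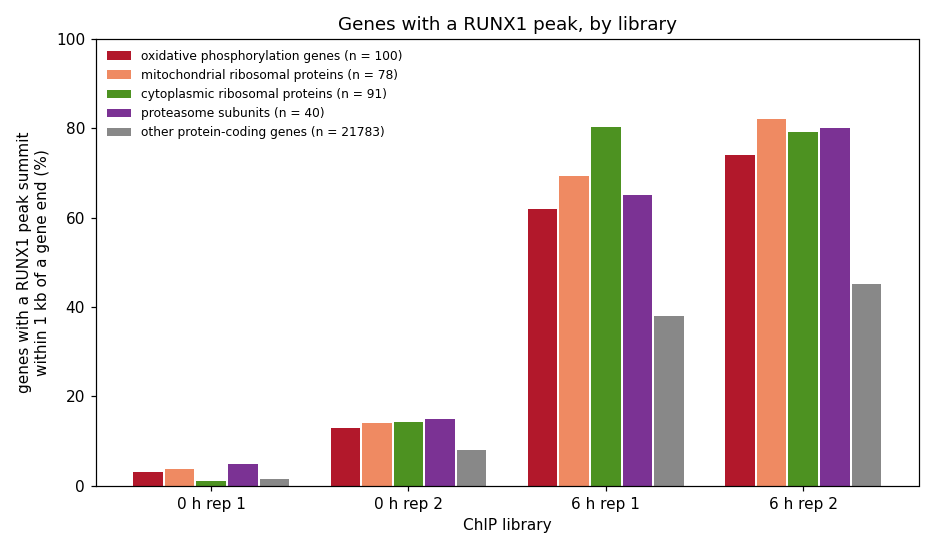
Percent of genes with a RUNX1 peak summit within 1 kb of a gene end (y axis, from 0 to 100) in each of the 4 ChIP libraries (x axis), for 5 groups of genes named in the key with their sizes. Each bar is the share in 1 library, so it has no error bar; the oxidative phosphorylation genes stand at 3, 13, 62 and 74% and the other protein-coding genes at 1.57, 8.02, 38.0 and 45.3%.

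In terms of single genes, 61 of the 100 had a peak in both 6 h lists, against 37.3% of all nuclear protein-coding genes. Of all 100 genes, 14 had a peak in at least 1 of the 0 h lists (background 8.12%), each of them among these 61, and 47 had a peak in both 6 h lists and none at 0 h (background 29.3%). Among genes with a peak in both 6 h lists, 77.0% of the members and 78.7% of other protein-coding genes had none at 0 h, so the members were close to the other genes on that base. Only Ndufs1 and Atp5l, 2 of the 100, had a peak in both 0 h lists (background 1.49%). Another 14 had a peak in exactly 1 of the 6 h lists (background 8.95%), 13 of them in replicate 2 and 1 in replicate 1. The other 25 had no peak in any list (background 53.7%). In complex I these included Ndufs3, Ndufa3, Ndufa4l2, Ndufa5, Ndufb4b, Ndufb4c and Ndufc2, with the assembly factors Ndufaf1 and Ndufaf7. Outside complex I they were Sdhaf4, Uqcr10, the ATP synthase genes Atp5g3, Atp5h and Atp5k, and 10 genes of complex IV named below. At each of the 61 genes a peak of one 6 h replicate overlapped a peak of the other. None of the 100 genes had a 0 h peak without a 6 h peak. Of the 1763 other protein-coding genes with a 0 h peak only 14 had no 6 h peak, so the members were near the background.

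**Figure D2:**
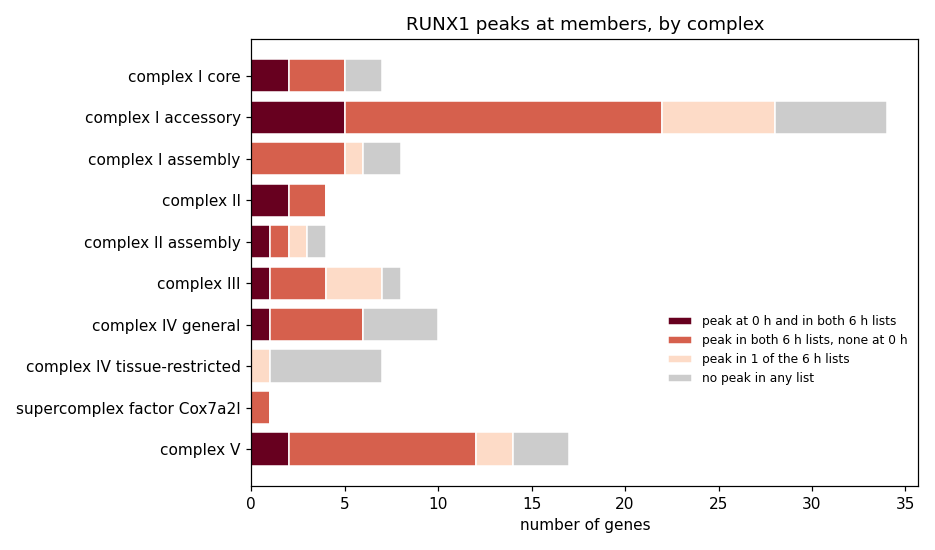
Number of genes (x axis) in each complex or group (y axis), divided by where a RUNX1 peak was called: at 0 h and in both 6 h lists, in both 6 h lists only, in 1 of the 6 h lists, or in no list. All 4 complex II subunits fall in the first 2 classes, and 6 of the 7 tissue-restricted complex IV isoforms had no peak. Over all protein-coding genes 37.3% had a peak in both 6 h lists and 53.7% had none in any list.

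The 7 nuclear-coded core subunits of complex I include those that carry the flavin and iron-sulphur clusters. Of these 7, 5 had a peak in both 6 h lists (background 37.3%). The 95% Clopper-Pearson CI of 5 of 7, 29.0 to 96.3%, includes 37.3%. The core subunit Ndufs7, which binds the last iron-sulphur cluster before ubiquinone, had the highest mean percentile over both 6 h lists of all 100 genes. No 0 h peak was called there, and its peak at chr10:80248883-80249927 in 6 h replicate 1 was enriched 27.0-fold. In 6 h replicate 2 the value was 30.6, and both ranked high, at percentiles 97.2 and 94.3 of the lists. Fold enrichment is the authors' ratio of ChIP over local background at the summit, and a percentile is the rank of that value among all peaks of its own list. Ndufs8, which also holds iron-sulphur clusters, stood at 16.8 and 15.9, percentiles 88.5 and 75.3, and its summit lay within 1 kb of an end of Aldh3b1 too. Ndufv2 of the NADH-oxidising module stood at 13.1 and 17.9, percentiles 79.1 and 80.6. Neither had a 0 h peak.

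Ndufs1, the largest core subunit, was 1 of 2 members with a peak in all 4 lists. Fold enrichment was 4.40 and 7.62 in the 0 h replicates and 8.35 and 18.4 in the 6 h replicates. The percentiles were 5.33 and 55.9, then 47.4 and 81.7, each within a list of its own length. The summits lay 81 to 176 bp from the gene end that faces Eef1b2, a translation elongation factor gene, and the peak cannot be assigned to either gene. Ndufv1, the subunit that binds NADH, had a peak in 0 h replicate 2 with a fold of 6.81, and 7.83 and 12.5 at 6 h. Ndufs3, a core subunit, had no peak in any list.

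Of the 34 Nduf genes grouped by symbol as accessory subunits of complex I, which surround the core, 22 had a peak in both 6 h lists and 6 more in replicate 2 alone. Over all protein-coding genes 37.3% had a peak in both 6 h lists and 8.95% in exactly 1. Ndufab1, the mitochondrial acyl carrier protein, had no peak in 0 h replicate 1 and a fold of 8.08 in replicate 2, where 35 reads covered the summit. At 6 h it had 21.2 and 29.0 with 102 and 136 reads, at percentiles 93.9 and 93.4. Ndufs5 was the only member with a peak in 0 h replicate 1 and not in replicate 2, with a fold of 6.73. It reached 13.1 and 19.7 at 6 h. Ndufa4, counted here by its symbol although it is now known as a subunit of complex IV, had 6.84 in 0 h replicate 2 and 10.1 and 16.8 at 6 h. Its 0 h summit lay 15 bp inside the gene and the 6 h summits lay 185 and 101 bp upstream of the start, on the side of Phf14. Ndufa10 had 5.74 in 0 h replicate 2 and 7.86 and 10.1 at 6 h, and Ndufv3 had 4.96 and then 5.47 and 9.41.

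The 8 complex I assembly factors build the complex and are not part of it. Of these, 5 had a peak in both 6 h lists and none at 0 h (background 29.3%, within the 95% Clopper-Pearson CI of 24.5 to 91.5%). Their median percentile, averaged over both 6 h lists, was 11.1, against 79.9 for the 5 core subunits and 46.7 for the 22 accessory subunits. These medians describe the genes with peaks only.

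Complex II is the succinate dehydrogenase shared with the citric acid cycle, and its 4 subunits all had a peak in both 6 h lists (background 37.3%). Sdha, the flavoprotein, had a fold of 3.72 in 0 h replicate 2, at percentile 0.638, and 9.56 and 20.4 at 6 h, at percentiles 58.8 and 85.3. Its start faces Ccdc127. Sdhb, the iron-sulphur subunit, had 6.02 in 0 h replicate 2 at a summit 23 bp downstream of its start. The 6 h peaks at that start had a fold of 5.83 and 13.7, and a further peak lay at the far end of the gene, with 6.93 and 5.20. The membrane anchors Sdhc and Sdhd had no 0 h peak and lay at percentiles 1.68 and 25.6 and at 4.25 and 16.3 at 6 h. Of the assembly factors, Sdhaf2, which helps to attach the flavin, had 7.12 in 0 h replicate 2 and 15.5 and 20.7 at 6 h. Its summits lay 380 to 426 bp upstream of its start, also within 1 kb of an end of Cpsf7. Sdhaf1 had 13.4 and 17.0 at 6 h and no 0 h peak.

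In complex III, 4 of the 8 genes had a peak in both 6 h lists (background 37.3%). The 95% Clopper-Pearson CI of 4 of 8, 15.7 to 84.3%, includes 37.3%. Another 3 had a peak in 6 h replicate 2 alone, among them Uqcrc1 and Uqcrc2, the core proteins. Over all protein-coding genes 8.95% had a peak in exactly 1 of the 6 h lists. Uqcrfs1, the Rieske iron-sulphur protein, came next after Ndufs7 and Ndufab1 by the mean percentile over both 6 h lists. Fold enrichment was 4.60 in 0 h replicate 2, at percentile 4.07, and 16.1 and 23.0 at 6 h, at percentiles 87.2 and 88.7. This gene had no other protein-coding gene end within 1 kb of its summit.

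Complex IV was divided by isoform. Of the 10 general subunits, 6 had a peak in both 6 h lists (background 37.3%) and 1 of these at 0 h as well (background 8.12%). The 95% Clopper-Pearson CI of 6 of 10, 26.2 to 87.8%, includes 37.3%. Of the 7 isoforms known from particular tissues (Cox4i2, Cox6a2, Cox6b2, Cox7a1, Cox7b2, Cox8b and Cox8c), 0 had a peak in both 6 h lists (95% Clopper-Pearson CI 0 to 41.0%, which includes the 37.3% of all protein-coding genes), and Cox6b2 alone had one, in 6 h replicate 2 with a fold of 7.42 and 23 reads. Its summit also lay within 1 kb of an end of Fam71e2. Cox4i1, the general partner of Cox4i2, had 6.66 in 0 h replicate 2 and 16.5 and 21.1 at 6 h (percentiles 87.8 and 86.3). The earlier summit lay 226 bp from the gene on the side of Emc8, and the highest 6 h summits lay inside it, 118 and 138 bp from the same end. In 6 h replicate 1 the 0 h peak of Cox4i1 was overlapped by another, lower peak, with a fold of 7.81 at percentile 40.9. The peak of 6 h replicate 2 covered both places. Cox6a1 and Cox8a also had a 6 h peak in both replicates where Cox6a2, Cox8b and Cox8c had none. Cox6b1, Cox7a2 and Cox7b had no peak in any list, and for Cox6b1 the pair was the other way round. Cox7a2l, a factor of the supercomplexes of the chain, had 6.51 and 10.3 at 6 h.

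Complex V had 12 of 17 genes with a peak in both 6 h lists (background 37.3%). Atp5l, the membrane subunit g, was the other member with a peak in all 4 lists. Fold enrichment was 5.46 and 8.91 in the 0 h replicates, percentiles 14.7 and 74.3. In the 6 h replicates it was 6.68 and 14.4, percentiles 25.7 and 70.2. The fold in 0 h replicate 2 lay between those of the 6 h replicates, so the time points overlapped. Atp5mpl had 7.73 in 0 h replicate 2 and 9.07 and 11.1 at 6 h, while its percentiles were 59.5 and then 55.0 and 52.7. Atp5d, the delta subunit, had the highest 6 h rank of complex V, with 15.5 and 15.3 at percentiles 85.9 and 73.1, and no 0 h peak. Atp5a1 and Atp5b, which code for the alpha subunit and the catalytic beta subunit, had 12.5 and 12.1, and 8.93 and 6.53, in the 6 h replicates, without a 0 h peak.

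Atp5j was the 1 gene with a peak in 6 h replicate 1 and not in replicate 2. It overlaps the first 967 bases of Gabpa, which codes for the ETS factor named above, and the genes run in opposite directions. In replicate 1 there was a peak at chr16:84834383-84835139 by the Gabpa start and another at chr16:84835245-84835641, with a fold of 8.93 and 8.77. Replicate 2 had a single peak at chr16:84834407-84835685, with a fold of 13.8. Its summit lay 111 bp from the Gabpa start and 1077 bp from that of Atp5j, just beyond the 1 kb limit. Neither 0 h list had a peak there.

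**Figure D3:**
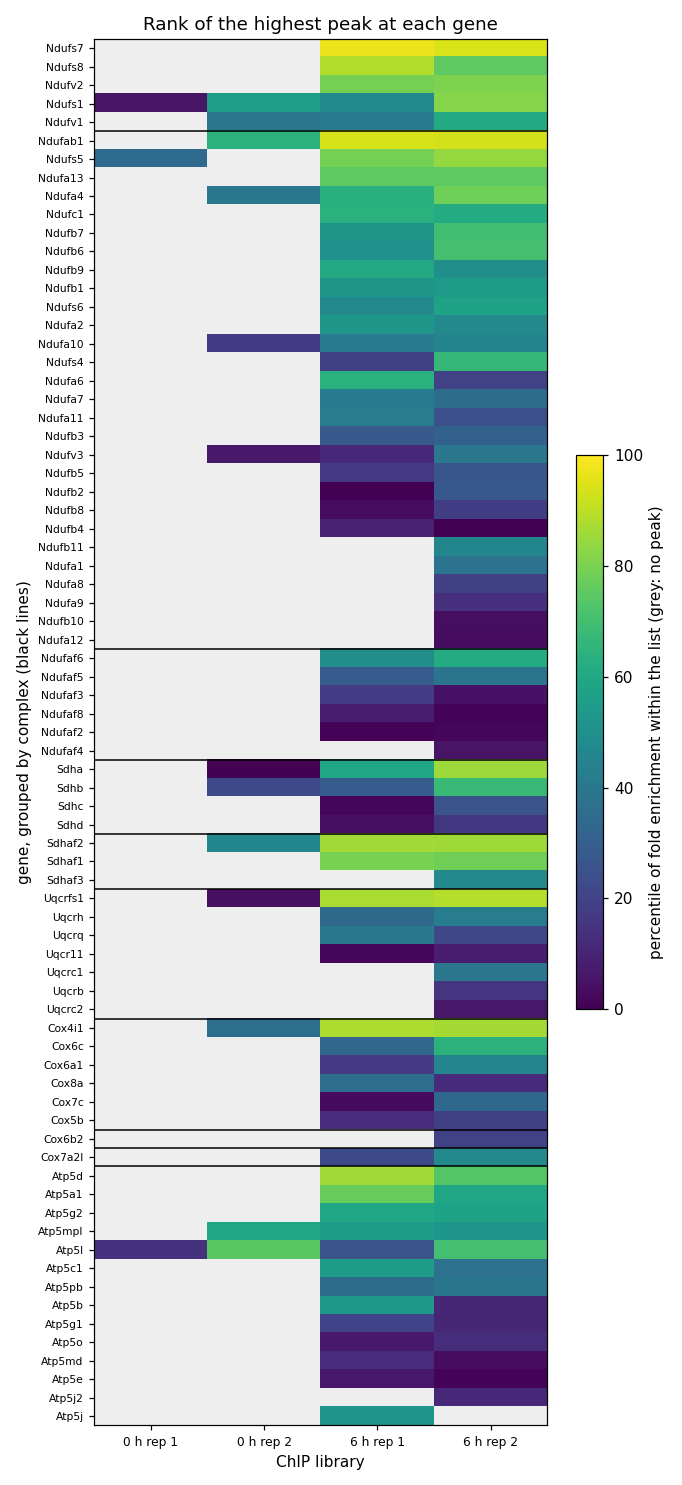
Percentile of fold enrichment within its own list (colour, 0 to 100) of the highest peak at each of the 75 members with a peak, in the 4 ChIP libraries (x axis). Genes are grouped by complex between black lines and grey means no peak; Ndufs7, Ndufab1 and Uqcrfs1 have the highest mean percentile over both 6 h lists, and only Ndufs1, Ndufs5 and Atp5l have a peak in 0 h replicate 1.

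The 0 h peaks were low in reads and lay at the 6 h sites. The 16 peaks, 3 in replicate 1 and 13 in replicate 2, had between 21 and 54 reads at the summit, and none was in the upper 10% of its list by fold. Of the 0 h peaks at other genes, 6.43% and 7.79% were, and 0 of 16 is near those shares. The median number of reads in replicate 2 was 30 for the members and 31 for other genes. At 14 of the 14 genes with a 0 h peak, it overlapped a 6 h peak by at least 1 bp (100%, 95% Clopper-Pearson CI 76.8 to 100, which covers counting error only), with a median distance of 30.5 bp between summits. For other protein-coding genes the share was 99.9%, so the overlap is not particular to the members. The members with a 0 h peak had a median 6 h percentile of 67.6, and the 47 without one had 35.0. No such split is given for other protein-coding genes, so it is not shown to be particular to the members.

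**Figure D4:**
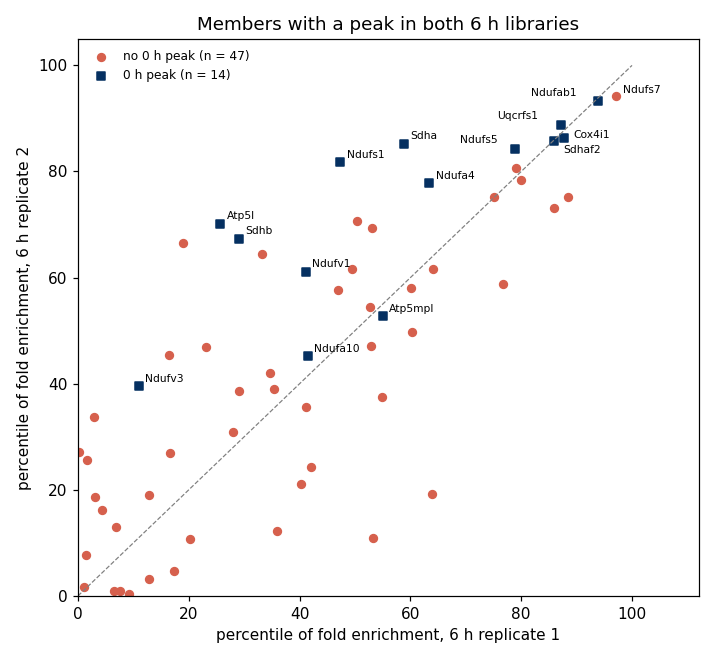
Percentile of fold enrichment of the highest peak in 6 h replicate 1 (x axis) and replicate 2 (y axis) at the 61 members with a peak in both, with the line of equal rank dashed. Squares mark the 14 genes that also had a 0 h peak; they reach from Ndufv3 at 11.0 and 39.5 to Ndufab1 at 93.9 and 93.4.

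The peaks at these genes ranked below those at other genes by fold and were about equal to them by reads. In 6 h replicates 1 and 2 the median percentile of fold was 41.3 and 39.6 for the members and 53.9 and 56.2 for other protein-coding genes with a peak. The upper 10% of each list held 3.23% and 2.70% of the members' peaks and 10.3% and 9.68% of the others. The median number of reads at the summit, recovered from the deposited fold and p-value, was 54 and 54.5 for the members and 53 and 55 for the others. The local background recovered in the same way was higher at the members, 6.19 and 4.41 reads against 4.82 and 3.73. Ranked by reads, the members stood at a median percentile of 61.1 and 61.8 and the others at 59.7 and 62.4. The share of the background in the lower fold ranks was not tested. Cytoplasmic ribosomal protein genes had a background of 6.43 and 4.41 reads and median fold percentiles of 31.6 and 44.5. Proteasome genes had low fold percentiles too, 25.5 and 40.8, with a lower background of 5.14 and 4.10 reads and fewer reads at the summit, 44 and 48. Mitochondrial ribosomal protein genes ranked higher, at 46.1 and 51.3 with a background of 5.63 and 4.35 reads, and the genes of cytochrome c and coenzyme Q stood at 71.9 and 69.9 with 4.82 and 3.73. The assembly factors outside the rule had a background of 6.43 and 4.97 reads and fold percentiles of 50.9 and 43.3, and the citric acid cycle genes had 6.59 and 4.72 reads and percentiles of 39.2 and 59.5. The regulators of respiratory genes and mitochondrial DNA had 5.63 and 4.35 reads and percentiles of 41.5 and 59.2. Reads at the summit also differed between the lists, from 48 for proteasome genes to 74 for cytochrome c and coenzyme Q in 6 h replicate 2. How background and fold rank relate over these lists was not tested.

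Peaks lay at gene starts. The strand was known for 82 of the 100 genes. Of the members with a peak and a known strand, 51 of 52 in 6 h replicate 1 and 62 of 62 in replicate 2 had the highest peak nearer to the start than to the finish. Among other protein-coding genes it was 94.9% and 94.4%. The median distance from the start was 117 and 85.5 bp for the members and 146 and 140 bp for the others. A position within 250 bp of the start was found for 39 and 54 of these members, 75.0% and 87.1%, and for 64.0% and 65.2% of the others.

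**Figure D5:**
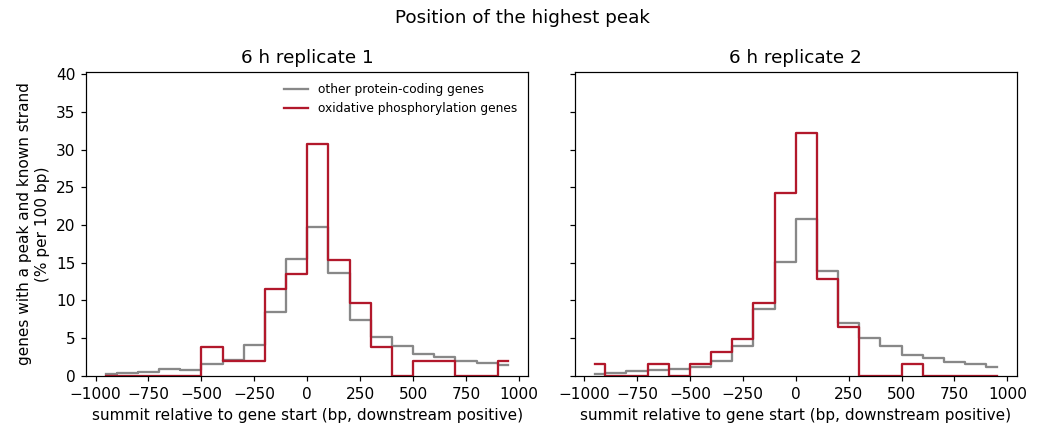
Percent of genes with a peak and a known strand (y axis, per 100 bp) against the distance of the highest summit from the gene start (x axis, bp, downstream positive), in 6 h replicate 1 (left) and replicate 2 (right). The red line is the oxidative phosphorylation genes (52 and 62 genes) and the grey line other protein-coding genes (6703 and 7948); both have their highest bin in the 100 bp downstream of the start.

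A neighbouring gene end lay near the members more often than near other genes. In 6 h replicates 1 and 2, 30 of 62 and 34 of 74 of the highest peaks had another protein-coding gene end within 1 kb of the summit (48.4% and 45.9%), against 28.2% and 26.3% of the highest peaks at other protein-coding genes. A peak list cannot assign such a peak to either gene. Another protein-coding gene end lay within 1 kb of an own end for 55 of the 100 members and for 24.7% of other genes. With such a neighbour, 65.5% of the members and 60.3% of other genes had a peak in both 6 h lists. Without one, 55.6% of the 45 members and 29.6% of other genes did, so the excess of the members over other genes was smaller among genes with a neighbour. The difference between these excesses was not tested.

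The words of known factors were counted in the 87 RefSeq promoter windows of 82 members, which run from 250 bases before to 50 bases after a start. A RUNX word was present in 19.5% of the members' windows, 21.6% of the windows of all nuclear protein-coding genes and 22.4% of all windows of the table. Among members with a peak in both 6 h lists 10 of 54 windows held one, and among members with no peak 6 of 20. Only 24 of 52 and 38 of 62 of the members' highest 6 h summits lay inside such a window, so the counts describe the promoter windows and not the peaks. Only the Ndufs7 window held 4 RUNX words, the highest number among the members. The ETS word was in 25.3% of the members' windows, 11.6% of those of protein-coding genes and 8.86% of all windows. The NRF1 word was in 13.8%, 3.51% and 2.71%, the YY1 word in 12.6%, 3.05% and 2.75%, and the CRE word in 4.6%, 2.23% and 1.79%. The SP word was in 46.0%, 46.2% and 35.7%. Words were searched on both strands, and 1 pair of different words overlapped. The shares are descriptions of these windows, and a word is not a binding site.

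Other genes of the respiratory pathway were read from lists beside the members. Of the 13 genes of the citric acid cycle, 11 had a peak in both 6 h lists and 5 had one at 0 h, beside 37.3% and 8.12% of all protein-coding genes. Suclg1, a subunit of succinate-CoA ligase, stood at 10.4 and 12.5 in the 0 h replicates, percentiles 81.8 and 92.6, and at 23.3 and 32.8 in the 6 h replicates, percentiles 95.4 and 95.3. Its 0 h percentiles lay above those of all members. Of the 15 genes of cytochrome c and coenzyme Q, 11 had a peak in both 6 h lists and 5 at 0 h, against the same background. Cycs, which codes for cytochrome c, had a peak in all 4 lists, of 4.96 and 6.74 before and 17.4 and 20.2 after hCG.

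Of 31 further assembly factors for complexes III, IV and V, 21 had a peak in both 6 h lists and 7 at 0 h, beside 37.3% and 8.12% of all protein-coding genes. Pet117 had the highest 6 h rank among them, with 24.9 and 39.0. Of 22 regulators of respiratory genes and mitochondrial DNA, 16 had a peak in both 6 h lists and 2 at 0 h, and the latter share of 9.09% is near the background. Yy1 had 9.86 in 0 h replicate 2 and 22.7 and 24.9 at 6 h. Nrf1 and Tfam, the packaging factor of mitochondrial DNA, had 10.3 and 16.1, and 7.29 and 16.1, in the 6 h replicates, without a 0 h peak. Ppargc1a had 5.93 and 12.1 at 6 h. Polg and Polrmt, the mitochondrial DNA and RNA polymerases, had no peak.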

How the data were processed

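The data are 4 deposited peak lists, 1 per RUNX1 ChIP library, read from single ends of 75 nt. The submitters' processing notes name Bowtie2 2.2.5, MACS2 and mm10. Each time point had 1 pooled input, per the labels. The version of MACS2 and any filters are not given in the sources used here. For each peak the deposited lists give a fold (the ratio of ChIP reads to the local background, with a constant added to each), a −log10 p-value and a −log10 q-value. The authors' score column was not used, and intervals are given counted from 1.

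The lists held 948 and 3135 peaks at 0 h and 18761 and 28671 at 6 h, and the lowest −log10 p was 9.01 to 9.18. Total read counts are not given. The reads at a summit and its background were solved from fold and p (misfit in −log10 p at most 0.005) for 100% of peaks, and the commonest background was 2.13 to 2.77 reads. The solution took p as the upper tail of a Poisson distribution and the fold with the constant named above.

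Genes came from RefSeq on GRCm38.p6, and their strand from the promoter table. Where several peaks lay in the window, the one with the highest fold was used. Computations used Python 3.11.15, numpy 2.4.6, pandas 2.3.3 and scipy 1.17.1. They were tested on simulated data. Libraries were compared with exact permutation tests. Named genes are those with a 0 h peak, the 10 with the highest mean 6 h percentile, the tissue-restricted isoforms, and by name those without peaks; others named beside them were chosen for their role after their values were seen. The members and lists were chosen with earlier results of these data known. The inputs were not analysed here, and 1 item is not reported here. Alternatives covered distance, peak threshold, list length, gene start, membership, ranking, single libraries and the replicate block.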

Additional observations from a re-analysis of the deposited data

How the results depend on the processing

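Of the 26 alternative values of the 2 differences between time points, 24 kept their direction, and the exact test could not go below 0.333 in any of them without a block. With an equal number of peaks per list both turned, to −2.00 points for the share of members and −1.93 points for the excess over other genes, and 0% of the members had a peak in both 6 h lists and 0% of their 0 h peaks overlapped a 6 h peak. The list is then limited to 948 peaks by construction, and only 4 members had a 0 h peak. A minimum −log10 q of 20 left 0% of members in both 0 h lists, 43.0% in both 6 h lists and a median 6 h percentile of 33.2. That median was 40.5 with all peaks, 47.8 within 5 kb, 38.6 at gene starts only, 37.1 for members without a neighbouring end and 61.5 when ranked by reads; the cause was not tested. Leaving out 1 library gave differences of 54.0 to 66.0 and 20.8 to 25.5 points. The remaining 0 h list alone gave 3% to 13.0%, and the remaining 6 h list alone 62.0% to 74.0%. The median percentile was then 39.6 to 41.3 and the overlap 100%.

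With the replicate numbers as a block, the differences were the same 60.0 and 23.2 points, with an exact permutation p of 0.5, the smallest that 2 pairs allow. The titles give only a number, so the pairing is not established. Leaving out the tissue-restricted isoforms and ranking by reads were chosen after the data were seen. The lowest number of reads at a summit was 17 to 20 in the 4 lists, so a site with fewer reads was not detectable.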

Other observations

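The 25 genes without a peak within 1 kb were followed outward. The nearest summit of any list lay a median of 9731 bp from their ends, within 5 kb for 9 genes and beyond 50 kb for 3. Cox5a, a general subunit of complex IV, had 1 summit inside the gene in each 0 h list and 2 in each 6 h list. The nearest lay 2404 bp from an end, with a fold of 13.4 in 6 h replicate 2. Atp5g3, which codes for the c subunit of the ATP synthase ring, had a summit 1167 bp from an end inside the gene, with a fold of 16.1 in 6 h replicate 2, at percentile 75.9. Cox7a2 had 1 summit inside the gene in each 6 h list. The nearest lay 4450 bp from an end, with a fold of 7.04 in 6 h replicate 1. The tissue-restricted Cox4i2 had a summit 1610 bp away, outside the gene, with a fold of 7.74. The nearest summit to Cox7b2 lay 619795 bp away, and that to Ndufa5 lay 137352 bp away. Ndufb4b and Ndufb4c, short relatives of Ndufb4, had their nearest summits at 33316 and 48226 bp, while Ndufb4 itself had a peak in both 6 h lists with a fold of 5.28 and 3.90. These genes were singled out after their values were seen.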
